A study of Mus musculus with 4 samples.

Results

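The unfolded protein response and the ATF4 stress response were followed through 31 genes on 4 arrays of sorted mouse alveolar type II cells (AEC2), the surfactant-secreting cells of the lung alveolus. A gene entered the set by name: every probe set that the platform annotation gave to a single one of the 31 symbols was taken, and the probe sets of a gene were averaged. All 31 genes were on the array, read by 74 probe sets, out of 18193 genes with a single symbol. The 4 arrays held cells from untreated wild-type lungs, untreated TLR4-/- lungs, and lungs of both genotypes collected on day 4 of injury with bleomycin, an agent toxic to lung epithelium. Each array was hybridised with RNA of cells pooled from 4 to 5 mice, so every group had 1 array and no spread between pools of a group could be measured. TLR4 is an innate immune receptor, and its loss is the one genetic change the labels state. The sources used here do not give the TLR4-/- allele, the strain, sex or age of the mice, the bleomycin dose or the sort gate.

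The endoplasmic reticulum (ER) senses unfolded protein through IRE1 (encoded by Ern1), ATF6 and PERK. IRE1 splices the mRNA of Xbp1, ATF6 is cut to release a transcription factor, and PERK phosphorylates eIF2, which lowers general translation and favours translation of Atf4. XBP1 and ATF6 raise chaperones, oxidoreductases and degradation factors, while ATF4 raises genes of amino acid synthesis and transport and the factor CHOP (Ddit3). AEC2 secrete much surfactant protein, and misfolding variants of surfactant protein C are known to load this system. Splicing, cleavage, phosphorylation and translation are not measured by these arrays.

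The DNA letters that the response is known to use were looked for in the RefSeq promoters of the members (build GRCm38.p6), 300 bases per window from 250 before to 50 after each annotated start. The search covered both strands, and 28 of the 31 members had a window. The ER stress response element (ERSE), read as CCAAT and CCACG with any 9 bases between them, is bound by NF-Y with ATF6 or XBP1. It was in the window of 7 members (Hspa5, Hsp90b1, Calr, Canx, Dnajc3, Creld2 and Pdia6) and in 0.119% of all 32851 windows. The shorter ERSE-II, ATTGG and CCACG with any 1 base between them, was in Herpud1 and Dnajb11 and in 0.0365% of windows. The C/EBP-ATF response element core (CARE), TGATGNAA, bound by ATF4 with a C/EBP partner, was in Asns, Chac1, Trib3 and Herpud1 and in 3.97% of windows. ERSE and ERSE-II share the run CCACG, which also lies in the reverse strand of TGACGTGG, the unfolded protein response element, found in 0.676% of windows and in 0 members. The following stretches are shown because they hold these letters in members described below. Each is read 5′ to 3′ on the strand of the gene, ends before the start, and has the fixed letters of the motif (or of its reverse complement) in capitals.
Hspa5, ERSE, chr2:34772005-34772063, plus strand: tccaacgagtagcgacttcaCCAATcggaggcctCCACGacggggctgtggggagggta
Hsp90b1, reversed ERSE, chr10:86705513-86705571, minus strand: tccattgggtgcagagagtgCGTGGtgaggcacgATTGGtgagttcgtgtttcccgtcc
Canx, ERSE, chr11:50325780-50325838, minus strand: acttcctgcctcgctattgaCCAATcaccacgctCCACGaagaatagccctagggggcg
Dnajc3, ERSE, chr14:118937807-118937865, plus strand: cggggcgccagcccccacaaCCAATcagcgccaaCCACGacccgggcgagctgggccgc
Pdia6, ERSE, chr12:17266471-17266529, plus strand: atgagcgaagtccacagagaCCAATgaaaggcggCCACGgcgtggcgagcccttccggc
Herpud1, ERSE-II, chr8:94386357-94386407, plus strand: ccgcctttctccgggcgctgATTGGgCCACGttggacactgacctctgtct
Herpud1, reversed CARE, chr8:94386297-94386344, plus strand: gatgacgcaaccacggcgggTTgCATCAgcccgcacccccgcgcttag
Asns, CARE, chr6:7693210-7693252, minus strand: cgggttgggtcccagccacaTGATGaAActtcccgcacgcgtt
Chac1, reversed CARE, chr2:119351029-119351076, plus strand: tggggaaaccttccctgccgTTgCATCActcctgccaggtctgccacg

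Values are log2 signals as deposited, and differences are log2 differences. The 9096 genes with a mean signal above 7.05, the median of all genes, were tested. Of the members, 30 passed and Chac1 did not. The bleomycin effect over both genotypes was tested with limma in a model with genotype as the other term, which leaves 1 residual degree of freedom per gene so that unequal responses of the genotypes enter as error. Calls are at a Benjamini-Hochberg adjusted p under 0.05 over all tested genes. A difference between 2 single arrays has no test. For these, 1.5-fold (a log2 difference of 0.58) was used as a descriptive mark. Beside it stands a standard deviation of 0.23 for a difference of 2 arrays, which limma estimated over all genes. That estimate rests on how far the genotypes' responses differ, so noise and true differences are mixed in it.

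The arrays resembled each other in level, with medians between 6.93 and 6.98. Over all tested genes, 7.18% rose after bleomycin and 2.53% fell. AEC2 markers were bright on every array, and 0 of 11 were called after bleomycin, with a summed linear signal of 115909 and 114968 in the untreated wild-type and TLR4-/- pools and 114777 and 108044 at day 4. Leukocyte and macrophage markers rose in 8 of 9 tested genes, and all 12 on the array were higher after bleomycin in both genotypes. Their summed signal went from 1581 to 4021 in wild type and from 1564 to 5152 in TLR4-/-. Mesothelial markers rose in 3 of 3 tested genes (sums of 899.7 and 368.6 untreated, 1705 and 1361 at day 4). Fibroblast markers rose in 1 of 2 (sums of 725.7 and 532.5 untreated, 1518 and 1303 at day 4). In each of these lists all 5 on the array were higher after bleomycin in both genotypes. Ciliated cell markers fell in 2 of 4 tested genes (sums of 2751 and 2366 untreated, 1984 and 1971 at day 4). Of the 6 on the array, 6 were lower in wild type, while in TLR4-/- 4 were higher and 2 lower. Club cell markers had 0 of 7 called, and were lower after bleomycin in 7 of 7 in wild type and higher in 6 of 7 in TLR4-/- (sums of 29970 and 16636 untreated, 23210 and 22932 at day 4). Of the 9 B and plasma cell markers on the array, a lineage with a large ER, 2 passed the filter and 0 were called. Of 5 endothelial markers 1 passed the filter and 0 were called, while 1 was called lower without the filter. They were lower after bleomycin in 5 of 5 in wild type and 4 of 5 in TLR4-/-. Of 4 Tlr4 probe sets, 1 was lower in TLR4-/- (-1.63 untreated and -2.68 at day 4), another 2 were higher and the last was dim. Y-linked genes were higher at day 4, by 1.86 to 2.21 for the Eif2s3y probe sets, so treatment and a difference in sex between the pools cannot be told apart. In bulk RNA of a pool, fewer cells of a type and less RNA per cell cannot be told apart either.

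After bleomycin 2 of 4 genes of amino acid and one-carbon synthesis rose, 0 of 11 ER chaperones were called, and an oxidoreductase and a degradation factor fell. In the limma fit 3 of 30 tested members rose (Psat1, Asns and Atf5), where 7.18% of all tested genes rose, and 2 fell (Pdia6 and Herpud1), where 2.53% fell. At an unadjusted p under 0.05 there were 9 members, where 23.9% of tested genes passed. The median of the members' averages was 0.00, against 0.04 over all tested genes. Of all 31 members, 12 were higher in both genotypes, 10 were lower in both and 9 went opposite ways, where 38.9%, 27.6% and 33.5% of tested genes did so. With 30 tested members these counts rest on few genes, and nothing is read from them about the set as a whole.

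**Figure D1:**
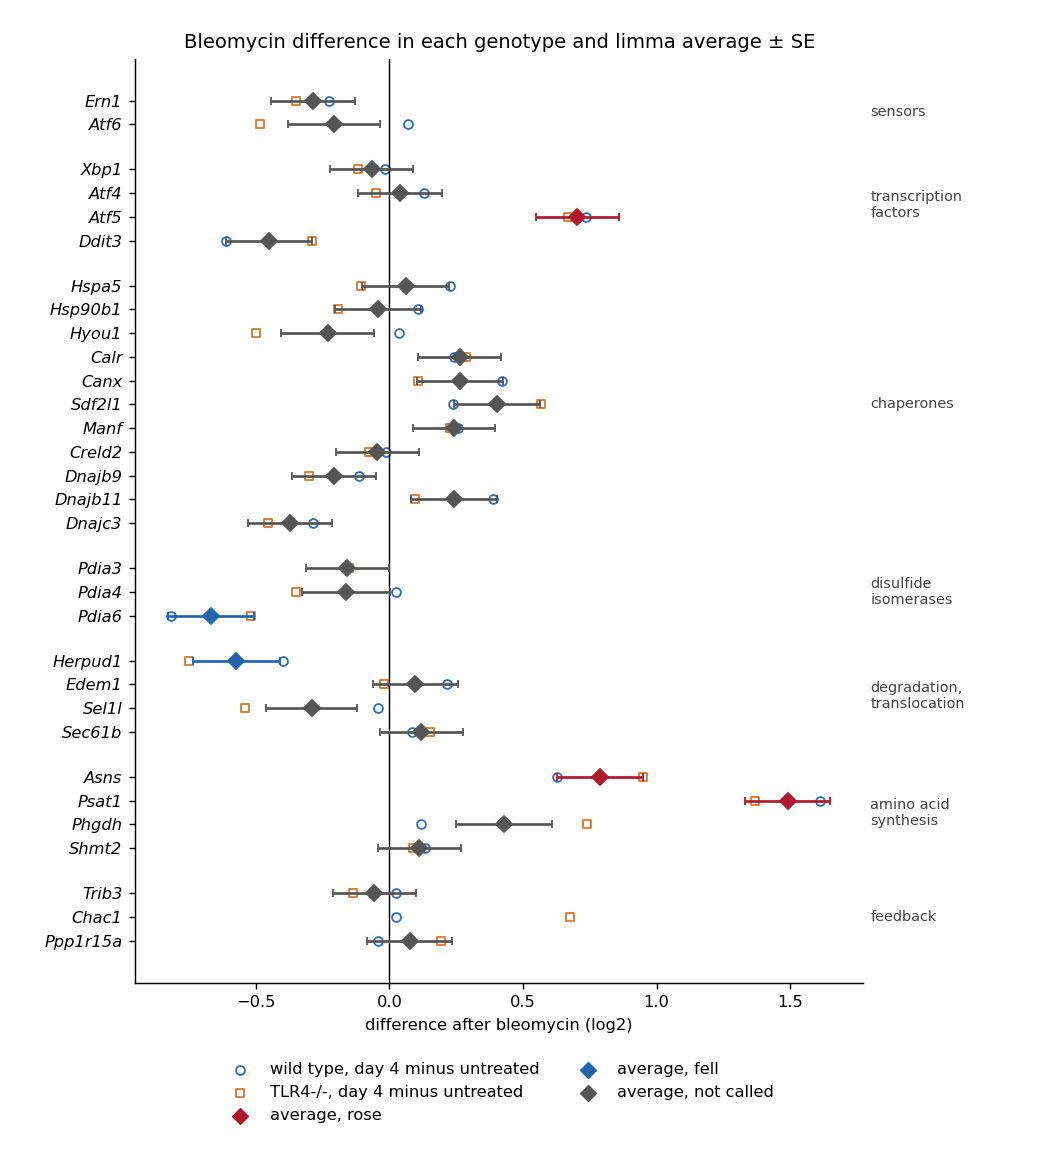
Difference after bleomycin (log2, x axis) for each of the 31 genes, ordered by role: open circles, wild type; open squares, TLR4-/-; diamonds, limma average of both with its SE (none for Chac1, which was not tested). Psat1, Asns and Atf5 lie right of 0 in both genotypes and Pdia6 and Herpud1 left of it, while the chaperones lie within 0.57 of 0 in either genotype.

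Psat1, the aminotransferase of the serine pathway, had the highest average of the set. Its signal was 7.44 in the wild-type and 7.99 in the TLR4-/- untreated pool, and 9.05 and 9.36 at day 4. Both day 4 arrays lay above both untreated arrays by over 1 log2 unit. Psat1 rose by 1.49 ± 0.16 (SE, limma over 2 pairs of arrays, adjusted p = 9.1e-05), or 2.81-fold, with differences of 1.61 in wild type and 1.37 in TLR4-/-. Each of its 2 probe sets was called when probe sets were fitted in place of genes, at 0.99 ± 0.19 (adjusted p = 0.0185) and 1.99 ± 0.18 (adjusted p = 0.00039), where 3.81% of 17472 probe sets rose.

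Asns, asparagine synthetase, whose promoter holds the CARE letters printed above, was at 7.55 and 7.88 untreated and at 8.18 and 8.83 at day 4. The untreated and day 4 values did not overlap. Asns rose by 0.79 ± 0.16 (limma adjusted p = 0.0086), by 0.63 in wild type and 0.95 in TLR4-/-. Its 2 probe sets read the change alike, with averages of 0.76 and 0.82.

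The other 2 enzymes of this group did not pass. Phgdh, which starts serine synthesis from glycolysis, was at 7.14 and 6.88 untreated and at 7.26 and 7.62 at day 4, an average of 0.43 ± 0.18 (limma adjusted p = 0.16). Its 4 probe sets disagreed, with averages from -0.13, for the brightest, to 0.90. Shmt2, the mitochondrial serine hydroxymethyltransferase that yields one-carbon units, lay between 7.09 and 7.29 on the 4 arrays, an average of 0.11 ± 0.16. Its 4 probe sets disagreed too, with averages from -0.05, for the brightest, to 0.32. Of the 4 genes, then, 2 rose, where 7.18% of tested genes did. All 4 were higher after bleomycin in both genotypes, where 38.9% of tested genes were. For Phgdh and Shmt2 this rests on averaging probe sets, since the brightest of each had an average below 0. The median of the 4 genes was 0.38 in wild type and 0.84 in TLR4-/-, against 0.07 and 0.01 over all tested genes. Leukocyte, mesothelial and fibroblast markers were also higher after bleomycin (sums above), and their part in the result was not tested.

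Among the transcription factors only Atf5 was called. Atf5, an ATF4-related factor that is itself a target of the pathway, was read by 1 probe set, at 7.87 and 8.64 untreated and at 8.60 and 9.30 at day 4. The wild-type day 4 value lay just below the untreated TLR4-/- value, so treated and untreated arrays overlapped. Within each genotype Atf5 was higher, by 0.74 and 0.67, and it rose by 0.70 ± 0.16 (limma adjusted p = 0.0135).

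The 3 other factors were not called. Atf4 mRNA lay between 10.26 and 10.39 on all arrays, an average of 0.04 with a 95% interval of -0.30 to 0.38. Xbp1 lay between 10.92 and 11.04, an average of -0.07 (-0.40 to 0.27). A change of 1.5-fold (0.58) lies outside both intervals, but these rest mostly on a variance shared over all genes and do not exclude it. Total mRNA does not tell spliced from unspliced Xbp1. Ddit3, the gene of the death-linked factor CHOP, was at 8.53 and 8.30 untreated and at 7.92 and 8.01 at day 4, an average of -0.45 ± 0.16 that did not pass (limma adjusted p = 0.10). Its 2 probe sets disagreed. The brighter one had an average of 0.01, from differences of -0.20 in wild type and 0.22 in TLR4-/-. The dimmer one had an average of -0.91, with signals of 7.84 and 7.52 untreated and 6.82 and 6.71 at day 4.

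**Figure D2:**
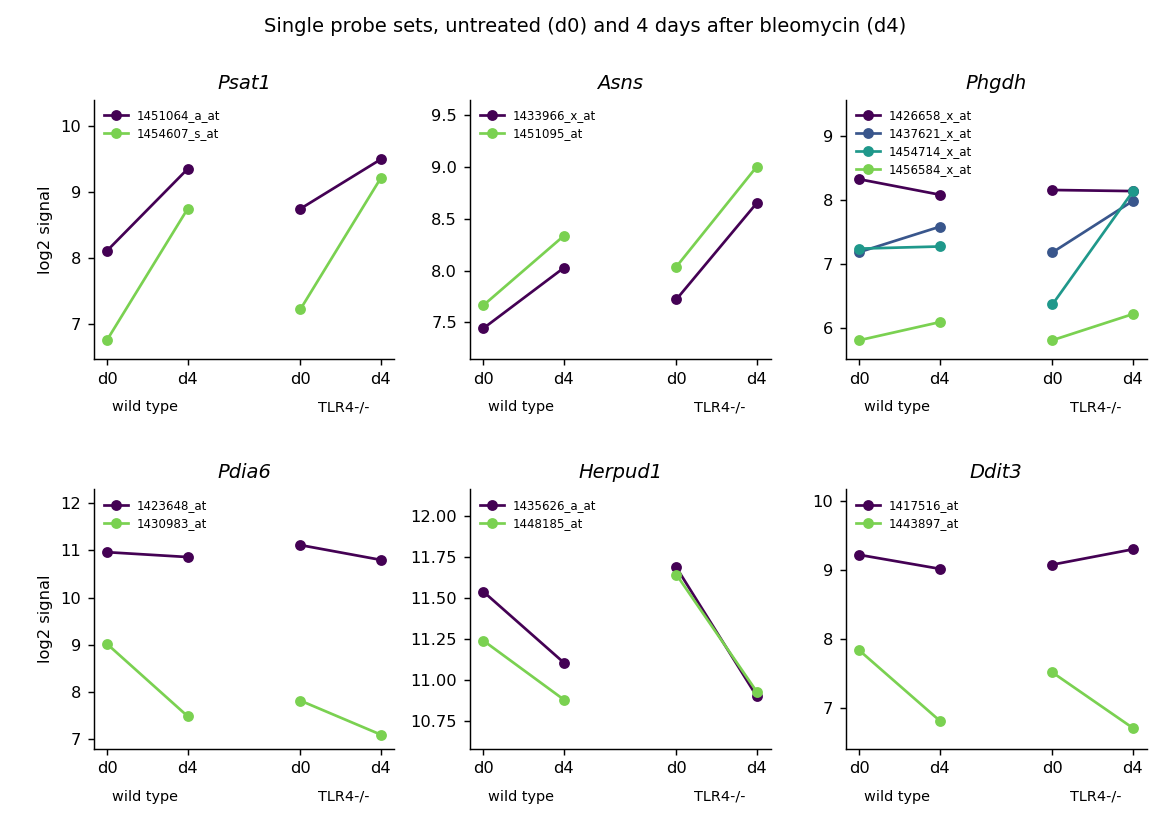
Log2 signal (y axis) of each probe set of 6 genes, untreated (d0) and 4 days after bleomycin (d4), in wild type on the left and TLR4-/- on the right of each panel. Both probe sets of Asns (0.76 and 0.82) and of Herpud1 (-0.61 and -0.54) have like averages, and those of Psat1 rise by different amounts (0.99 and 1.99). For Pdia6 and Ddit3 the dimmer probe set drops in both genotypes. The brighter one differs in wild type and TLR4-/- by -0.10 and -0.31 for Pdia6, and by -0.20 and 0.22 for Ddit3.

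The ER chaperones had 0 of 11 members called, where 7.18% of tested genes rose and 2.53% fell, so the count does not set them apart. Their median average was 0.06, with a range of -0.37 to 0.40. Hspa5, the ER HSP70 chaperone BiP and the usual readout of this response, was at 10.80 and 10.89 untreated and at 11.03 and 10.79 at day 4. Its TLR4-/- day 4 value was the lowest of the 4 arrays and the wild-type day 4 value the highest. The average was 0.06 ± 0.16 with a 95% interval of -0.29 to 0.41. With 1 array per group the interval rests mostly on a variance shared over all genes, so it does not exclude a larger change. Hsp90b1, the ER HSP90 (GRP94), had an average of -0.04 (-0.39 to 0.31), and Hyou1, which works with BiP, of -0.23 (-0.61 to 0.14).

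The lectin chaperones Calr and Canx, which hold glycoproteins during folding, had averages of 0.26 and 0.27, and neither passed (limma adjusted p = 0.34 and 0.35). Manf, a secreted ER protein that binds BiP, and Creld2, an ER stress-induced protein with EGF-like repeats, had averages of 0.24 and -0.05. The highest of the group was Sdf2l1, a partner of the BiP co-chaperones. It went from 8.75 to 8.99 in wild type and from 8.74 to 9.31 in TLR4-/-, an average of 0.40 ± 0.16 (limma adjusted p = 0.15). The lowest was Dnajc3 (P58IPK), a J-domain co-chaperone that also restrains PERK. Its signal was 10.40 and 10.62 untreated and 10.11 and 10.16 at day 4, an average of -0.37 ± 0.16 (limma adjusted p = 0.17), with averages below 0 in 5 of 5 probe sets. The J-domain proteins Dnajb9, which is known to restrain IRE1, and Dnajb11 had averages of -0.21 and 0.24.

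The 7 members with an ERSE in the promoter window had averages from -0.67 to 0.27 with a median of -0.04. Of these 7 genes 0 rose and 1 fell, Pdia6, where 7.18% and 2.53% of tested genes did. The 3 tested members with the CARE letters had averages of 0.79 (Asns), -0.06 (Trib3) and -0.57 (Herpud1). A shared motif thus went with averages on both sides of 0. Psat1 and Atf5, which rose as Asns did, had windows without the CARE letters.

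Of the protein disulfide isomerases, which form and reshuffle disulfide bonds in the ER, 1 of 3 fell, where 2.53% of tested genes did. With 3 genes nothing is read from this count. Pdia6, which also acts on IRE1 and PERK, was at 9.99 and 9.46 untreated and at 9.17 and 8.95 at day 4, with both day 4 values below both untreated ones. It fell by 0.67 ± 0.16 (limma adjusted p = 0.0214). The fall rested on 1 of its 2 probe sets. The dimmer one went from 9.01 to 7.48 in wild type and from 7.82 to 7.10 in TLR4-/-, whereas the brighter one went from 10.96 to 10.86 and from 11.11 to 10.80. Fitted as probe sets, the first fell by 1.12 ± 0.22 (limma adjusted p = 0.0181, where 1.34% of probe sets fell), and the second had an average of -0.21 ± 0.18 (adjusted p = 0.57). Which transcripts each probe set reads is not known from the files. Pdia3 and Pdia4 had averages of -0.16 each.

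In the degradation and translocation group 1 of 4 members fell, where 2.53% of tested genes did, and nothing is read from this count. Herpud1, a membrane protein of the ER degradation complex, was at 11.39 and 11.67 untreated and at 10.99 and 10.91 at day 4, so the 2 day 4 arrays were the lowest. It fell by 0.57 ± 0.16 (limma adjusted p = 0.0445), with differences of -0.40 in wild type and -0.75 in TLR4-/-. Both of its probe sets were lower, by averages of -0.61 and -0.54, although neither was called alone (limma adjusted p = 0.095 and 0.13). Sel1l, the adaptor of the ubiquitin ligase HRD1, went from 10.41 to 10.36 in wild type and from 10.55 to 10.01 in TLR4-/-, an average of -0.29 ± 0.17. Ciliated cell markers were lower after bleomycin in 6 of 6 in wild type, but higher in 4 of 6 in TLR4-/-. Endothelial markers, mostly below the filter, were lower in 5 of 5 in wild type and 4 of 5 in TLR4-/-. The part of either list in the falls of Pdia6 and Herpud1 was not tested. Edem1, which marks misfolded glycoproteins for removal, and Sec61b, a subunit of the translocation channel, had averages of 0.10 and 0.12.

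The sensors were not called, at -0.29 ± 0.16 for Ern1 and -0.21 ± 0.17 for Atf6. All 5 probe sets of Ern1 had averages below 0, from -0.47 to -0.12. Atf6 went from 8.99 to 9.06 in wild type and from 9.25 to 8.77 in TLR4-/-. Of the feedback genes, Ppp1r15a (GADD34), which directs dephosphorylation of eIF2, had an average of 0.08, and Trib3, a pseudokinase that restrains ATF4, of -0.06. Chac1, a glutathione-degrading enzyme, was too dim for the test. It was at 6.20 and 5.88 untreated and at 6.23 and 6.55 at day 4, higher by 0.02 in wild type and 0.68 in TLR4-/-.

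**Figure D3:**
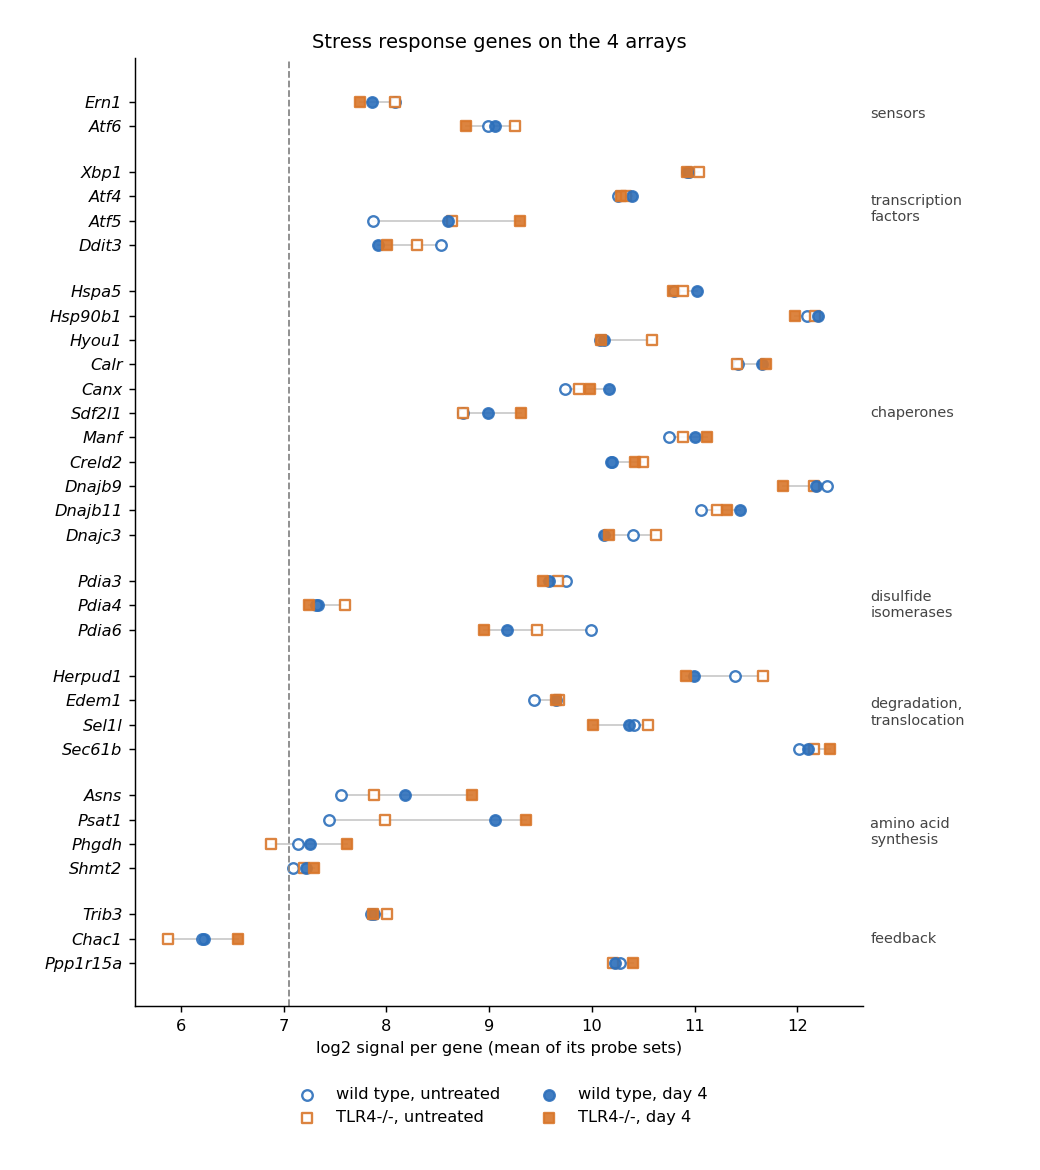
Log2 signal (x axis) of the 31 genes on each array: circles, wild type; squares, TLR4-/-; open, untreated; filled, day 4; the dashed line is the filter at 7.05. The filled symbols lie right of the open ones for Psat1 and Asns and left of them for Pdia6 and Herpud1; positions of different genes are not comparable, since probe sets differ in response.

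The calls depended on the arrays and on the model used. With 1 array left out and bleomycin as the only term, Psat1 and Herpud1 were called without the untreated wild-type array, and Psat1, Asns, Atf5 and Pdia6 without the untreated TLR4-/- array. No member (0) was called without the wild-type day 4 array, when 18 genes in all rose and 3 fell, or without the TLR4-/- day 4 array, when 0 genes in all were called by limma. The averages moved too. That of Atf5 was 0.32 without the untreated wild-type array, 0.35 without the TLR4-/- day 4 array, 1.09 without the untreated TLR4-/- array and 1.05 without the wild-type day 4 array. That of Pdia6 was -0.41 without the untreated wild-type array, and that of Asns was 0.46 without the TLR4-/- day 4 array. With no filter, and also with bleomycin as the only term on 4 arrays or with the brightest probe set of each gene, Psat1 alone was called. Without the filter 1.75% of 18193 genes rose and 0.264% fell.

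In single pairs of arrays, 3 tested members passed 1.5-fold higher in wild type (Psat1, Asns and Atf5), where 8.42% of tested genes did, and 2 passed it lower (Pdia6 by -0.82 and Ddit3 by -0.61), where 2.69% did. In TLR4-/- the members past 1.5-fold higher were 4 (the same 3 and Phgdh at 0.74), against 7.97% of tested genes, and 1 was lower (Herpud1 at -0.75), against 5.12%. The median over the 31 members was 0.07 in wild type and -0.08 in TLR4-/-, beside 0.07 and 0.01 over tested genes.

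The difference between the genotypes' responses could not be tested with 1 array per group. Its standard deviation of 0.32 was estimated from these same differences over all genes. It thus holds true differences as well as noise and is no measure of noise alone. Taken as TLR4-/- minus wild type it was below 0 for 21 of 31 members, where 59.2% of tested genes were below 0, and its median was -0.12 against -0.07. The chaperones were below 0 in 9 of 11, with a median of -0.19. The lowest values were those of Atf6 (-0.55), Hyou1 (-0.54) and Sel1l (-0.50), and the highest were Chac1 (0.65) and Phgdh (0.62). Club cell markers also responded differently in the genotypes (sums above), and their part in these values was not tested. Phgdh was the 1 tested member past 1.5-fold, where 4.02% of tested genes passed it upward and 6.56% downward. Its value rests largely on 1 of its 4 probe sets, higher after bleomycin by 1.76 in TLR4-/- and 0.03 in wild type. The others differed by -0.02 to 0.80 in TLR4-/- and -0.24 to 0.40 in wild type.

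Between the genotypes, Atf5 was the member that differed most in both conditions. It was higher in TLR4-/- by 0.77 untreated and by 0.70 at day 4. Limma called 0 members and 0 of all genes for genotype. Without the filter it also called 0, and 7.02% of 18193 genes passed an unadjusted p under 0.05. At an unadjusted p under 0.05 there were 4 members, namely Atf5, Asns, Psat1 and Pdia6, where 9.04% of tested genes passed. Atf5 had an average of 0.74 ± 0.16 (limma adjusted p = 0.17), Asns of 0.49 ± 0.16 (0.35) and Psat1 of 0.42 ± 0.16 (0.43), each higher in TLR4-/- in 2 of 2 conditions, while Pdia6 was lower, at -0.37 ± 0.16 (0.51). Past 1.5-fold were Atf5 in untreated cells (5.54% of tested genes were higher and 1.92% lower) and Atf5 and Asns at day 4 (1.51% and 0.616%). Of all members 6 were higher after bleomycin in both genotypes and higher in TLR4-/- in both conditions (Atf5, Asns, Psat1, Manf, Sec61b and Shmt2), and both contrasts use the same 4 arrays.

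**Figure D4:**
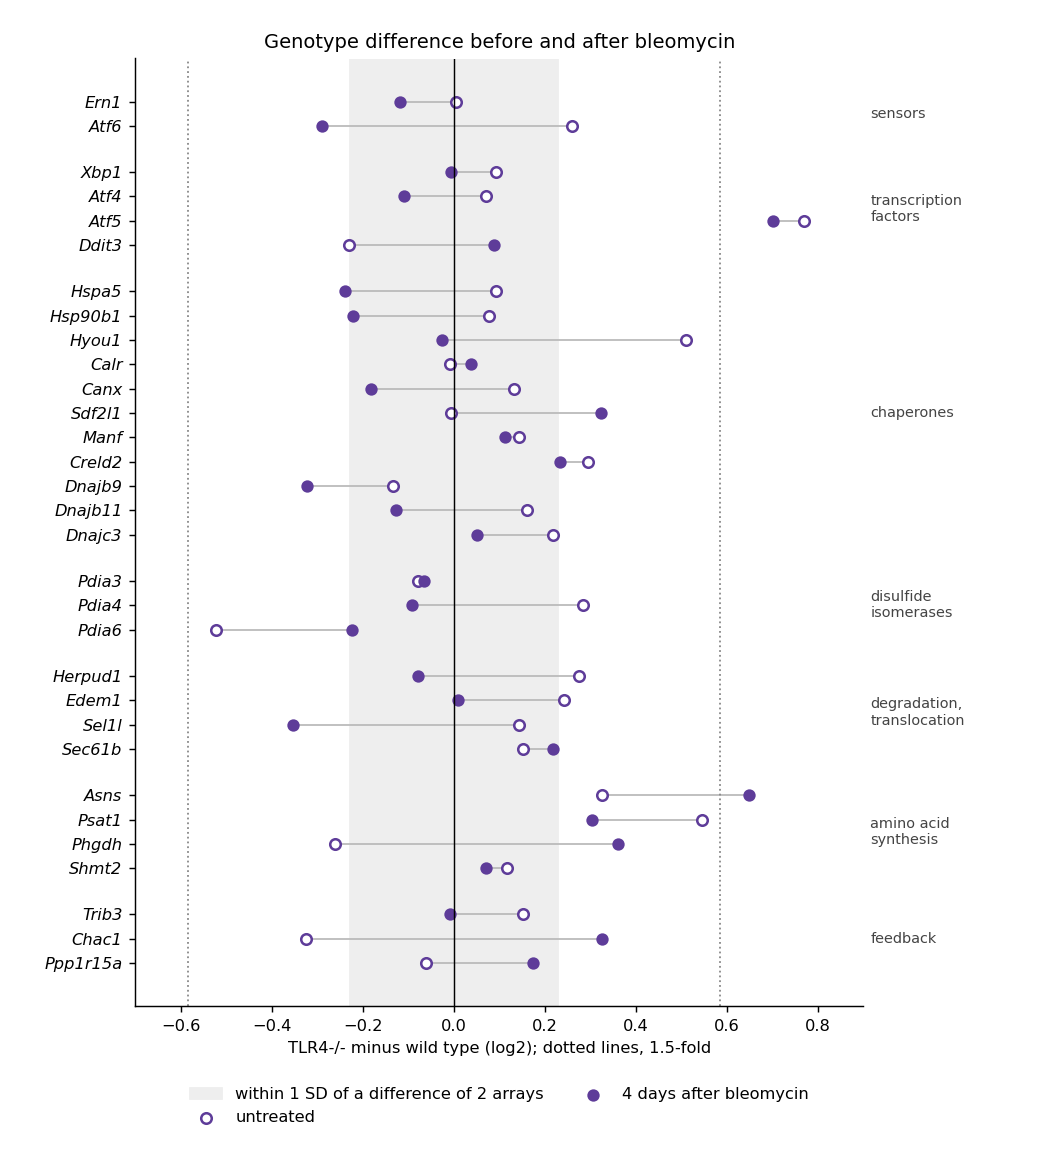
TLR4-/- minus wild type (log2, x axis) for each gene, untreated (open) and at day 4 (filled); grey, within 1 SD (0.23) of a difference of 2 arrays; dotted, 1.5-fold. Atf5 lies past 1.5-fold in both conditions and Asns at day 4, and most other genes lie within 0.35 of 0.

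In the untreated pools 22 of 31 members were higher in TLR4-/-, with a median of 0.13 against 0.08 over all tested genes, of which 62.2% were higher. At day 4 it was 15 of 31, with a median of -0.01 against 0.02. Most members were thus higher in untreated TLR4-/- cells, as most genes were. In the untreated pools the median over all tested genes depended on scaling, at 0.12 with centred arrays and 0.025 with quantile normalization. Hyou1 was at 10.08 and 10.59 in the untreated wild-type and TLR4-/- pools and at 10.12 and 10.09 at day 4. Club cell markers were lower in the untreated TLR4-/- pool than in wild type in 7 of 7 genes and mesothelial markers in 5 of 5, and their part in the result was not tested.

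The rest of the pathway was followed with 6 further lists of 107 genes in all, of which 101 were on the array and 91 were tested. Among these 6 rose and 1 fell, where 7.18% and 2.53% of all tested genes did, so the counts do not set these lists apart. The median average was 0.09, against 0.04 over all tested genes. Wfs1, an ER membrane protein that is lost in Wolfram syndrome, rose by 0.98 ± 0.17 (limma adjusted p = 0.0035). Eif2ak2, the RNA-activated eIF2 kinase PKR and an interferon-stimulated gene, rose by 0.84 ± 0.17 (adjusted p = 0.0069). Creb3l2, an ER-bound transcription factor, fell by 0.65 ± 0.16 (adjusted p = 0.0226). Eif2ak3, the gene of PERK, had an average of -0.49 ± 0.16 and did not pass (limma adjusted p = 0.073).

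Of 13 tested degradation genes 1 rose, the segregase gene Vcp, by 0.57 ± 0.16 (limma adjusted p = 0.046). Of 18 tested folding enzymes 1 rose, Erp29, by 0.57 ± 0.16 (adjusted p = 0.040). Translocation and glycosylation had 0 of 19 called. Other ATF4 targets had 1 of 15, Sesn2, a stress gene that is also a p53 target, which rose by 0.64 ± 0.17 (adjusted p = 0.036). Cytosolic tRNA synthetases, which ATF4 is known to raise, had 1 of 12, Iars, up by 0.65 ± 0.17 (adjusted p = 0.035), where 7.18% of tested genes rose. Of the 6 lists the synthetases had the highest median, 0.29, and 9 of 12 were higher in both genotypes, where 38.9% of tested genes were. With the brightest probe set, Vcp had an average of 0.27 (limma adjusted p = 0.42) and Eif2ak2 of 0.51 (adjusted p = 0.13). Without the untreated wild-type array and the genotype term, the averages were 0.51 for Wfs1, 0.41 for Iars, 0.34 for Vcp and 0.31 for Sesn2. That of Sesn2 was 0.98 without the untreated TLR4-/- array. Without the TLR4-/- day 4 array that of Erp29 was 0.34. None of these 7 calls remained without the filter (0 of 7), or with bleomycin as the only term on 4 arrays (0 of 7).

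**Figure D5:**
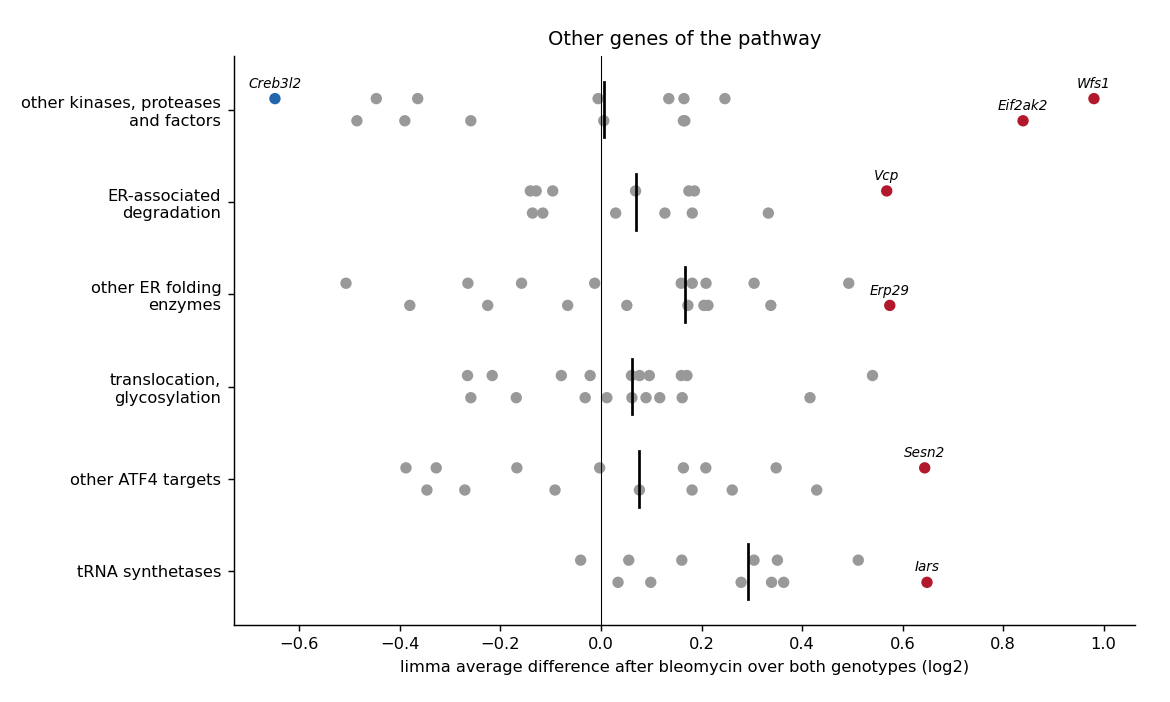
Limma average difference after bleomycin (log2, x axis) for the tested genes of 6 further lists of the pathway; red, rose; blue, fell; grey, not called; bars, list medians. The medians run from 0.01 to 0.29 and the 7 called genes are labelled.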

How the data were processed

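The deposited values are read as log2 signals per probe set, since they run from 3.07 to 14.55 with close quartiles; the authors' software, normalization and detection calls are not given in the sources used here. Per the labels' protocols, amplification of cDNA and labelling with biotin used NuGen kits. Of 45101 probe sets, 64 were array controls, 34945 carried 1 symbol, 932 several and 9160 none. For 34741 with 1 symbol the Entrez identifier was in the RefSeq gene table (GRCm38.p6), and 204 kept the annotation's name. Probe sets were averaged per gene in Python 3.11.15, and genes above the median of gene means were fitted in R 4.3.3 with limma 3.58.1 (eBayes without trend or robust; prior of 11.4 degrees of freedom). The fit was tested on simulated data. With 1 array per group, the 1 residual of a gene is how far the responses of both genotypes differ. Spread between pools and a true difference of responses are mixed in it and cannot be told apart. Each standard error combines this residual (1 degree of freedom) with the prior over all genes, which weighs more. The number of arrays limits the precision. Alternatives were other scaling, filters, probe set rules, models and arrays left out; the fit on probe sets was added after the data were seen. All 31 members are named, with every pathway gene called after bleomycin, up to 6 per list and direction. The members and lists were chosen with earlier results of these data known. Promoters are from RefSeq, build GRCm38.p6; Manf, Hyou1 and Atf6 had none in the table.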

Additional observations from a re-analysis of the deposited data

Results flagged for a closer look

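Probe sets that the annotation gives to several genes were left out of the gene values, and 3 of them name a member. The one shared by Phgdh and Gm6756 was higher after bleomycin by 1.13 in TLR4-/- (5.84 untreated, 6.98 at day 4) and differed by -0.11 in wild type (6.56 and 6.45). It drew attention as a signal outside the values used for the comparisons. The Phgdh probe sets with a single symbol averaged 0.74 in TLR4-/- and 0.12 in wild type. The difference between the genotypes was not tested.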

How the results depend on the processing

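For the count of members that rose (3), the brightest probe set per gene, no filter and bleomycin as the only term each gave 1 (Psat1), and probe sets fitted singly gave 2. For the count that fell (2), these gave 0, 0 and 0, centred arrays 0 and single probe sets 1. Pdia6 and Herpud1 had an adjusted p of 0.051 and 0.091 with centred arrays. With 1 array left out, the counts ranged from 0 to 3 and from 0 to 1, in fits where a lone array is assumed to vary like the others. Members called for genotype stayed at 0 in every alternative run. Members past 1.5-fold numbered 5 in wild type (3 with the brightest probe set, 1 past 2-fold) and 5 in TLR4-/- (1 past 2-fold). Between genotypes they numbered 1 untreated (2 with the brightest probe set, quantile normalization or centring, 0 past 2-fold) and 2 at day 4 (0 past 2-fold). For the difference of responses it was 1 (3 with the brightest probe set, 2 with no filter, 0 past 2-fold). The 12 called genes named (5 members, 7 of the pathway lists) had 72 averages under the other settings, of which 43 lost the call, and 48 with 1 array left out, of which 35 did. In these 0 changed sign. The fits with 1 array left out also lack the genotype term, so a difference between the genotypes moves their averages. Centring moved the median of all tested genes in untreated TLR4-/- minus wild type from 0.08 to 0.12, and quantile normalization moved it to 0.025. Why these values moved was not tested, apart from the number of genes or arrays that each setting holds. The arrays are paired by genotype in the fit reported, and bleomycin as the only term is its unpaired form. The labels give no replicate numbers by which arrays could be paired otherwise.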

Other observations

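Among the 91 tested pathway genes outside the member set, 10 had a response to bleomycin at least 1.5-fold lower in TLR4-/- than in wild type and 0 had one at least 1.5-fold higher, where 6.56% and 4.02% of all tested genes did. These genes were picked after their values were seen. Ddost, a subunit of the oligosaccharyltransferase that attaches sugars to nascent proteins, differed after bleomycin by 0.26 (wild type) and -0.78 (TLR4-/-). Ostc, another subunit of that complex, differed by 0.17 and -0.60. Pck2, the mitochondrial phosphoenolpyruvate carboxykinase and an ATF4 target, differed by 0.35 and -0.68, and Txndc5, an ER disulfide isomerase, by 0.02 and -0.78. In the untreated pools all 4 were higher in TLR4-/- than in wild type, Ostc by 0.76 and Pck2 by 0.66, and the untreated arrays enter both differences. None of this could be tested with 1 array per group.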
